A study of Mus musculus with 4 samples.

Results

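Of 20021 protein-coding genes with curated RefSeq transcripts on mouse chromosomes 1 to 19, 1840 were partly open in visceral adipose tissue, meaning that an ATAC-seq peak lay within 500 bp of any of their transcription start sites in 1, 2 or 3 of 4 libraries. They made up 9.19% of the coding genes and 13% of the 14129 coding genes with a promoter peak in at least 1 library. Another 11773 coding genes (58.8%) were open in all 4 libraries, and 5892 (29.4%) were open in none. A further 516 genes that were open in both BPA libraries but in no control were left out by the same rule, so the members are not balanced between the groups. The members were selected on presence of a peak in these same libraries, and every count, level and G+C value by presence pattern below is therefore a description without a test.

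The tissue came from 8-week-old CD-1 mice, an outbred stock whose animals differ in genotype. The 2 control libraries came from descendants of dams given sesame oil. The 2 BPA libraries came from descendants of dams injected intraperitoneally with bisphenol A (BPA) at 50 mg/kg from embryonic day 7.5 to 13.5 of pregnancy. The generation of these descendants differed between the labels and the methods text, their sex was not labelled, and nothing ties a library number to a pairing between the groups. For 2 libraries against 2, the smallest two-sided p that exact permutation allows is 0.333.

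In ATAC-seq a transposase inserts adapters where DNA is not covered by nucleosomes, so that reads pile up over accessible promoters and enhancers. Most promoters of genes that every cell uses lie in CpG islands, stretches rich in G, C and unmethylated CG dinucleotides, and stay accessible in nearly all cell types. Promoters of genes used by a single cell type more often lack a CpG island and are accessible in those cells alone. Visceral fat holds adipocytes beside endothelial cells, pericytes, progenitors, macrophages and lymphocytes, and is covered by mesothelium, so a promoter of a rare cell type gives a weak peak in bulk tissue. In such a tissue fewer cells of a type and a weaker signal per cell cannot be told apart.

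Promoter sequences of named members are shown first, since base content and position of the peak differed between the presence patterns as sets of genes. They are reference sequences of RefSeq GRCm38.p6, 250 bases before the start site on the gene's strand, with CG dinucleotides in capitals. The first 3 are, among the best-ranked genes of their patterns, those nearest the pattern's median G+C with a stretch in the RefSeq promoter table that met no annotated exon, and the fourth a gene open in all 4 libraries. Isx (chr8:74872924-74873173, +) encodes an intestinal homeobox protein and was open in both controls only. Tmem69 (chr4:116555944-116556193, −), a transmembrane protein gene, was open in all but BPA 1. Naif1 (chr2:32450207-32450456, +), a nuclear protein gene, was open in BPA 2 only, and Arl10 (chr13:54574797-54575046, +), an ARF-like GTPase gene, in all 4.
Isx: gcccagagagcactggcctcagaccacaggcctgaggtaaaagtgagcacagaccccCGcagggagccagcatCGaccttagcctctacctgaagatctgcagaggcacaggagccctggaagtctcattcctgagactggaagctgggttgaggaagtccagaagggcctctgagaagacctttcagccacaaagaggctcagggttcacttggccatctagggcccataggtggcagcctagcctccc
Tmem69: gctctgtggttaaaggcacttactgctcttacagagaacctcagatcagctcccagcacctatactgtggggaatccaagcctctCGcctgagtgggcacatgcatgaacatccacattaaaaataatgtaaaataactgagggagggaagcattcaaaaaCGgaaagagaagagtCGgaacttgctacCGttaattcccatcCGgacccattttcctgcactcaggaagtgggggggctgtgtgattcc
Naif1: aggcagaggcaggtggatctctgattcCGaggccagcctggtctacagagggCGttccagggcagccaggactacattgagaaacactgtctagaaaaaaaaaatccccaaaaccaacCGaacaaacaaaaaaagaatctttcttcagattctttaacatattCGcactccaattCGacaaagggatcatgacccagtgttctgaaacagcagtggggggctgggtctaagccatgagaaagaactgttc
Arl10: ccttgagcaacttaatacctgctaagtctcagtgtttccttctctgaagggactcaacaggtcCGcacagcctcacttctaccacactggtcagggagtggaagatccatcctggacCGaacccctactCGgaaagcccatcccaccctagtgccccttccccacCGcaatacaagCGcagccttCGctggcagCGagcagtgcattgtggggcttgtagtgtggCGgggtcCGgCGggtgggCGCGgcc
These stretches held 2, 5, 5 and 12 CG dinucleotides in that order, and their G+C was 58.8%, 48.4%, 46.8% and 60%. Single stretches need not follow their pattern. Over 1001 bp the median was 49.2% in the pattern of Isx and 55.4% in that of Naif1. No base of the Isx and Naif1 stretches lay in a peak of any library, since their promoter peaks reached the 500 bp window from elsewhere. The Arl10 stretch lay in a peak of every library, over 250 bases in control 1, control 2 and BPA 2 and over 162 bases in BPA 1.

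A further 2 upstream stretches come from members whose peaks covered the start site itself, chosen after their values were seen. Muc16 (chr9:18674604-18674853, −) and Upk3b (chr5:136038246-136038495, +) encode a mucin and a uroplakin of mesothelium and were open in all but BPA 2.
Muc16: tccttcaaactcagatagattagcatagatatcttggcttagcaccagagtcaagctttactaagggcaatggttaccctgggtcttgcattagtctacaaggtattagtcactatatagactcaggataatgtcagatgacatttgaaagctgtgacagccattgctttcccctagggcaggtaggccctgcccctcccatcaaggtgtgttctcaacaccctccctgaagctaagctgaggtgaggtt
Upk3b: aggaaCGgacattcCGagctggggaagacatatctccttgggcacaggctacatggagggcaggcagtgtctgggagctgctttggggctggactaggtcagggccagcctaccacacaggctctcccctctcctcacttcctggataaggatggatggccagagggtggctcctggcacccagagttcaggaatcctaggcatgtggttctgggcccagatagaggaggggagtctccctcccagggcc
They held 0 and 2 CG dinucleotides. Peaks covered all 250 bases of the Muc16 stretch in control 1, control 2 and BPA 1, and 192, 200 and 159 bases of the Upk3b stretch in the same order.

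Histone gene pairs on chromosome 13 gave the best-ranked peaks centred between the starts of members. Replication-dependent histone genes are often arranged head to head, so that 1 stretch serves as promoter for an H2A and an H2B gene. The whole stretch between the start sites of H2ac22 and H2bc22 (chr13:21787249-21787487, +), which were open in both controls only, and between those of H2bc7 and H2ac7 (chr13:23574208-23574380, +), which were open in control 2 and BPA 1, is given with CCAAT and TATAAA on either strand in capitals. Both motifs were searched on the 2 strands, and they do not overlap here.
H2ac22 and H2bc22: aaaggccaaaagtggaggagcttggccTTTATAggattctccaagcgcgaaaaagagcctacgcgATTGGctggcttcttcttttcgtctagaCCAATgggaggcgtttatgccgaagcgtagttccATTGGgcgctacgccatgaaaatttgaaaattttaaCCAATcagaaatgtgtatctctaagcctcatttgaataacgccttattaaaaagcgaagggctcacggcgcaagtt
H2ac7 and H2bc7: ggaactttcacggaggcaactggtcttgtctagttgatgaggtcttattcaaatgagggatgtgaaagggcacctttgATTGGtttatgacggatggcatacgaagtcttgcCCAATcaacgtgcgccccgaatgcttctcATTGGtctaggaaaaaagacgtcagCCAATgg
The first stretch, of 239 bases, held CCAAT 4 times and TATAAA once, and the second, of 173 bases, held CCAAT 4 times and TATAAA 0 times. Over windows from 250 bases before to 50 after one start site, CCAAT lay in 38.6% of all coding genes and 33.2% of members, and TATAAA in 13.1% and 13.4%.

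The libraries differed in the length of their lists and in pile-ups, and read depth is known only through the pile-ups. The part of depth in the patterns was not tested. The lists of control 1 and control 2 held 82665 and 88911 peaks, and those of BPA 1 and BPA 2 held 72375 and 98060. Median pile-ups at the summits, the number of fragments that overlap there, were 22, 23, 19 and 38, and the lowest were 9, 9, 6 and 11. At genes open in all 4 libraries the median pile-ups were 58, 57, 84 and 284, so BPA 1 lay above both controls there. Median fold enrichments over local background at these genes were 6.23, 6.99, 10.9 and 9.98. As a check of the tissue label, 14 of 15 listed adipocyte genes had a promoter peak in every library. Adrb3, a beta-adrenergic receptor, had none, with peaks 720, 914 and 889 bp away in control 2, BPA 1 and BPA 2. Proliferation genes had peaks at 8 of 8 in every library too, so such counts alone do not single out the tissue. Control 1 had a promoter peak at 12695 coding genes (63.4%) and control 2 at 12455 (62.2%), while BPA 1 had one at 13029 (65.1%) and BPA 2 at 13701 (68.4%).

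Members were spread unevenly over 13 presence patterns. The largest held 446 genes open in BPA 2 only (2.23% of coding genes), followed by 423 genes open in all but control 2 (2.11%) and 224 in all but control 1 (1.12%). Patterns of middle size were all but BPA 1 with 134 genes (0.669%), control 1 only with 130 (0.649%), control 2 only with 123 (0.614%) and control 1 with BPA 2 at 110 (0.549%). Both controls only held 82 genes (0.41%) and control 2 with BPA 2 held 75 (0.375%). The smallest were BPA 1 only with 39 (0.195%), all but BPA 2 with 33 (0.165%), control 2 with BPA 1 at 11 (0.0549%) and control 1 with BPA 1 at 10 (0.0499%). In all, 738 members were open in 1 library, 288 in 2 and 814 in 3.

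**Figure D1:**
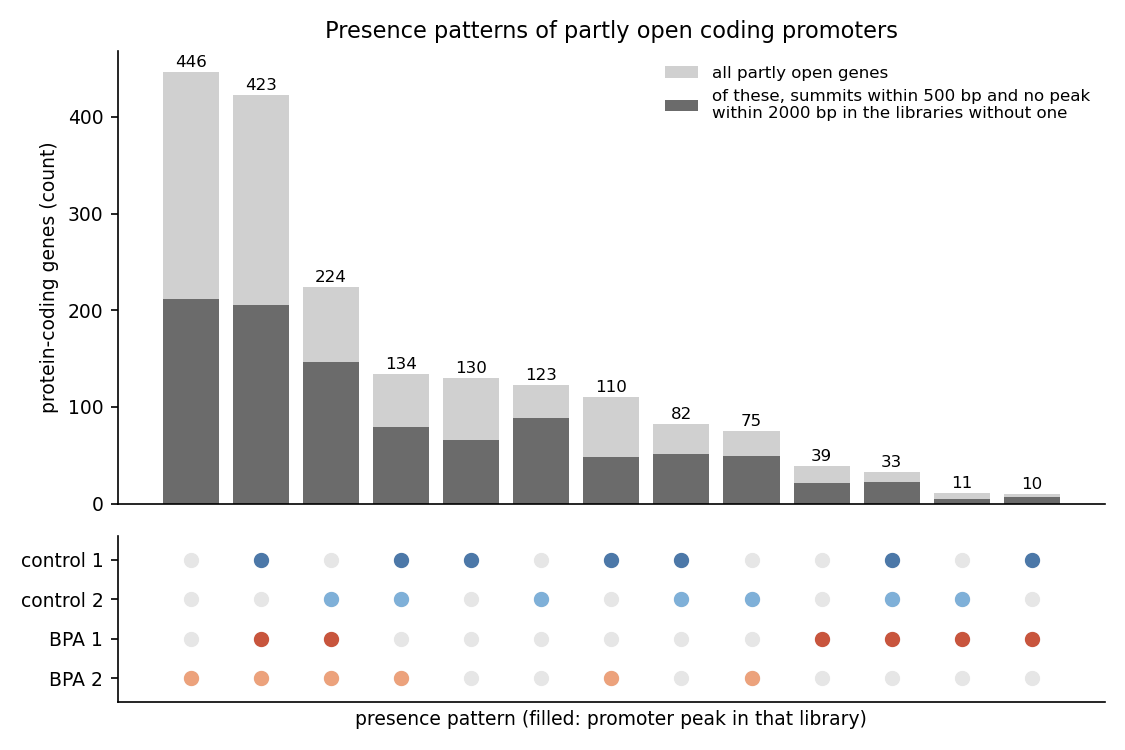
Number of partly open coding genes (y axis, count) in each of 13 presence patterns, with filled dots under each bar marking the libraries that held a promoter peak. Dark bars count genes whose summits all lay within 500 bp of a start site and whose other libraries had no peak within 2000 bp. BPA 2 only (446) and all but control 2 (423) were the largest patterns.

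Absence from a library did not follow the length of its list. Control 2, with the second longest list, lacked a promoter peak at 1158 members, BPA 1 with the shortest list at 1100, control 1 at 918 and BPA 2 with the longest list at 428. Among members open in 3 libraries the missing one was control 2 in 423 genes and BPA 1 in 134. When every list was cut to its best 72375 peaks, genes open in all but control 2 numbered 491 and those open in all but BPA 1 numbered 79. At that equal length BPA 2 only fell from 446 to 254 genes and BPA 1 only rose from 39 to 127, while both controls only changed from 82 to 91.

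The peaks at member promoters ranked low in their lists. Ranks were taken by −log10 q-value, the authors' measure of peak significance, as a percentage of the list with 0 as the best. The mean over 4 libraries of the median rank was 58.8% ± 7.01 (SD, n = 4 libraries) at members against 7.99% ± 1.62 at genes open in all 4 libraries. It was 51.8% ± 13.1 at members open in 3 libraries, 70.4% ± 12.4 in 2 and 76.5% ± 5.76 in 1. Median pile-ups at members ran from 18 to 39 across libraries, against 57 to 284 at genes open in all 4. Each library ranked members open in 3 libraries ahead of those open in it alone, with medians of 60.3% and 70.4% in control 1, 61.5% and 79.4% in control 2, 52.4% and 83% in BPA 1, and 33.2% and 73% in BPA 2.

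**Figure D2:**
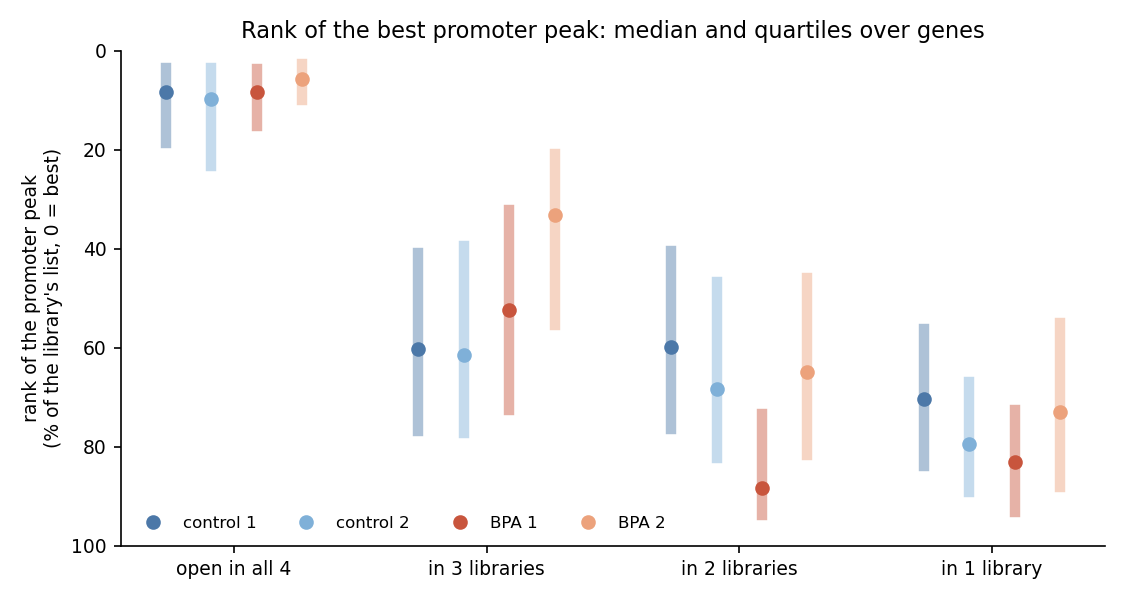
Rank of the best promoter peak (y axis, percentage of the library's own list, 0 the best) at genes open in all 4 libraries and at members open in 3, 2 or 1, with a point for the median over genes and a bar for the quartiles in each library. Medians at genes open in all 4 lay between 5.78% and 9.68%, above those of every member class.

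The ranks in the remaining libraries differed with the library that was missing. At the 423 genes open in all but control 2, the median rank was 28.2% in BPA 2, with a median pile-up of 71, but 49.5% in BPA 1 and 61.5% in control 1. At the 134 genes open in all but BPA 1, the controls had medians of 51.8% and 47.1%, against 59.5% in BPA 2. The 33 genes open in all but BPA 2, the deepest library, ranked at 46.9%, 49.6% and 74% in control 1, control 2 and BPA 1.

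At many members the promoter peak was the edge of a peak centred outside the window. In 574 of 1840 (31.2%), at least 1 promoter peak had its summit more than 500 bp from the start site, and at 354 (19.2%) a library counted as without a promoter peak held one between 501 and 1000 bp away. Among genes open in all 4 libraries the summit lay within 500 bp in every library at 84.4%. Naif1, the best-ranked gene of BPA 2 only, had a peak with a pile-up of 617 at a rank of 0.85% whose summit lay 1410 bp from the start. The nearest peaks of control 1, control 2 and BPA 1 lay 801, 908 and 556 bp from it. The 4 libraries thus all held a peak near Naif1, and the wide peak of BPA 2 alone reached the window.

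Other leading genes had the same arrangement. Thbs3, which encodes a thrombospondin of the extracellular matrix, was open in all but control 2, with pile-ups of 61 in control 1, 132 in BPA 1 and 485 in BPA 2, and the nearest peak of control 2 lay 534 bp away. Jund, an AP-1 transcription factor gene, was open in control 2 only, with a pile-up of 80 and nearest peaks of 515, 626 and 626 bp in control 1, BPA 1 and BPA 2. Tmem69 was open in all but BPA 1 with pile-ups of 95, 79 and 649 in control 1, control 2 and BPA 2, and BPA 1 had a peak 799 bp away. Of the 10 best-ranked genes open in both controls only, Sft2d3 and Csad had peaks of both BPA libraries between 506 and 590 bp from a start. Wnt6, a secreted signalling ligand gene open in control 1 and BPA 2, had pile-ups of 60 and 136 there and nearest peaks of 1036 and 1025 bp in control 2 and BPA 1.

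Further best-ranked genes divided in the same manner. Psd, in control 1 only, Ccin, a sperm head protein gene in BPA 1 only, and Sptbn4, a spectrin gene in BPA 2 only, had pile-ups of 59, 53 and 419, and each of their other libraries had a peak between 569 and 914 bp from a start. For Tas1r1, a taste receptor gene open in control 1 and BPA 1 with pile-ups of 38 and 39, control 2 and BPA 2 had peaks 614 and 516 bp away. Pinlyp, open in control 1 and BPA 2 with 79 and 255, had peaks 586 and 700 bp away in control 2 and BPA 1. Siah3, in control 2 and BPA 2 with 42 and 59, had them at 708 and 637 bp in control 1 and BPA 1. Genes missing 1 library included Catsperg1, a sperm ion channel subunit with the peak of control 1 at 505 bp, Bdh1, a ketone body enzyme with that of control 2 at 763 bp, and Dnajc5b, a chaperone with that of BPA 1 at 623 bp. In all of these the libraries that counted as closed held a peak outside the window.

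Of 5 further best-ranked genes, 4 had no peak within 1000 bp in the libraries that counted as closed, and Asic5 had one. Gm11100 and Clec2g, a C-type lectin, were open in both controls only with pile-ups of 30 and 39 and of 23 and 21, their summits lay 527 to 628 bp from the start, and no BPA peak lay within 16407 bp. Asic5, an ion channel gene, had 29 and 31 in the controls, while BPA 2 had a peak 656 bp away and BPA 1 none within 13157 bp. Zfp605, a zinc finger gene, and Tmub1, a ubiquitin-like gene, were open in all but BPA 2 with pile-ups of 64, 76 and 58 and of 45, 51 and 91 in control 1, control 2 and BPA 1. The nearest peaks of BPA 2 lay 1640 and 1968 bp away. Whether the libraries without a promoter peak could have listed one of this size there was not tested.

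At the 500 bp limit itself, the nearest peak of BPA 2 lay exactly 500 bp from a start of Apoa2, Cd22 and Slc38a8, which counted as open. The nearest peak lay 501 bp away at Gimd1 and Slc7a10 in control 2 and at Tbc1d10c in BPA 1, which counted as closed there. Between 28 and 43 genes per library lay within 50 bp inside the limit and between 29 and 53 within 50 bp outside.

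A stricter subset, chosen after the values were seen, kept members whose summits all lay within 500 bp of a start and whose other libraries held no peak within 2000 bp. It held 1000 of 1840 members (54.3%). The share was 72.4% for control 2 only (89 genes), 66.7% for all but BPA 2 (22) and 65.2% for all but control 1 (146), and 43.6% for control 1 with BPA 2 (48), 47.5% for BPA 2 only (212) and 48.5% for all but control 2 (205). For both controls only it was 62.2% (51 genes). The genes named in the next 4 paragraphs come from this subset.

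H2ac22 and H2bc22 led the genes open in both controls only. They shared 1 peak, with a pile-up of 56 and a rank of 6.26% in control 1 and of 52 and 9.3% in control 2, and the nearest peak lay at least 3405 bp away in BPA 2 and 7505 bp in BPA 1. Both controls were thus high at this stretch and neither BPA library had a peak there. Fbxo16, an F-box gene of the ubiquitin system, had pile-ups of 56 and 39 in the controls, and no peak within 3708 bp in either BPA library. Akr1c20, an aldo-keto reductase gene, had pile-ups of 34 and 23, with the nearest peak of a BPA library 85251 bp away. Pile-ups in control 1 and control 2 were 27 and 39 at Rsph14, a radial spoke gene of motile cilia, and 39 and 20 at Pifo, another ciliary gene. Tph2, the serotonin-forming hydroxylase of neurons, had 19 and 29. All of these were at or above 19. Pile-ups are not scaled between libraries, and whether the BPA libraries could have listed a peak of this size there was not tested.

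Of the 388 separate genes open in a single library, the best-ranked of each library serve as examples. Tespa1, a gene of T-cell development, had the highest rank among the separate members of control 1 only, at 3.89% with a pile-up of 70 and its summit 1 bp from the start, and no other library had a peak within 8084 bp. Il5ra, the interleukin-5 receptor gene of B cells and eosinophils, had a pile-up of 41 and no peak within 19564 bp elsewhere, and H4c2, a histone H4 gene, one of 47. In control 2 only, the leading genes were Slc17a6, a vesicular glutamate transporter, with a pile-up of 29, and the xenobiotic cytochromes P450 Cyp3a13 and Cyp2b10 with 28 and 34. In BPA 2 only they were Rab11fip4, a Rab11 effector, with 50, Sncb, beta-synuclein, with 44, and Mast1, a neuronal kinase, with 36. The pattern BPA 1 only was led by Nell2, a secreted neural protein gene, with a pile-up of 12 at a rank of 59.2%, the best rank among the separate members of this pattern.

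Genes open in 3 libraries had stronger peaks. Pnp, which encodes purine nucleoside phosphorylase and has a closely similar neighbouring copy, so that uniquely mapped reads are uncertain there, had pile-ups of 33, 38 and 73 in control 2, BPA 1 and BPA 2 and no peak within 12606 bp in control 1. H2-Aa, an MHC class II gene, had 41, 36 and 115 in the same order and no peak within 3700 bp in control 1. Hip1r, a clathrin-associated protein gene, had 36, 46 and 171 in control 1, BPA 1 and BPA 2 and none within 18571 bp in control 2. Zfp458, a zinc finger gene, had 38, 43 and 56 in control 1, control 2 and BPA 2 and none within 36855 bp in BPA 1. Each of these missed a single library, and a different one except for the pair from control 1.

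Genes open in 1 control and 1 BPA library were led by peaks of middle rank. AA467197, a gene of a small mitochondrial protein, was open in control 2 and BPA 2 with pile-ups of 34 and 50 and ranks of 18.9% and 29.1%, and the other libraries had no peak within 5960 bp. Npy4r, a receptor for pancreatic polypeptide, had 31 and 39 in the same libraries. Pitx3, a homeobox gene of lens and dopamine neurons, had 37 in control 1 and 123 in BPA 2, and Zswim2, a ubiquitin ligase gene, 26 and 28. Patterns with BPA 1 were weaker. Acox2, a peroxisomal oxidase of bile acid intermediates, had 22 in control 2 and 12 in BPA 1, and Dlg2, a synaptic scaffold gene, 13 in control 1 and 10 in BPA 1 at ranks of 72.9% and 73.5%.

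G+C content differed between the patterns. Within 500 bp of the start site the median was 54.6% at members, between 59.7% at genes open in all 4 libraries and 45.9% at genes open in none, with 56% over all coding genes. A CpG ratio of at least 0.6, the usual bound for a CpG island, was reached by 31.8% of members, against 76.5% of genes open in all 4, 5.09% of genes open in none and 50.4% of all coding genes. Patterns held by control libraries alone were the lowest, with medians of 49.2% for both controls only, 48.9% for control 1 only and 48% for control 2 only. Patterns missing one control were the highest, with 58.7% for all but control 2 and 57.4% for all but control 1. BPA 2 only had 55.4% and BPA 1 only 55.8%, while all but BPA 1 had 50.7% and all but BPA 2 52.2%. The share of genes with a CpG ratio of at least 0.6 was 46.1% in all but control 2, 43.8% in all but control 1 and 13.4%, 8.46% and 8.94% in the patterns of both controls, control 1 and control 2 alone.

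**Figure D3:**
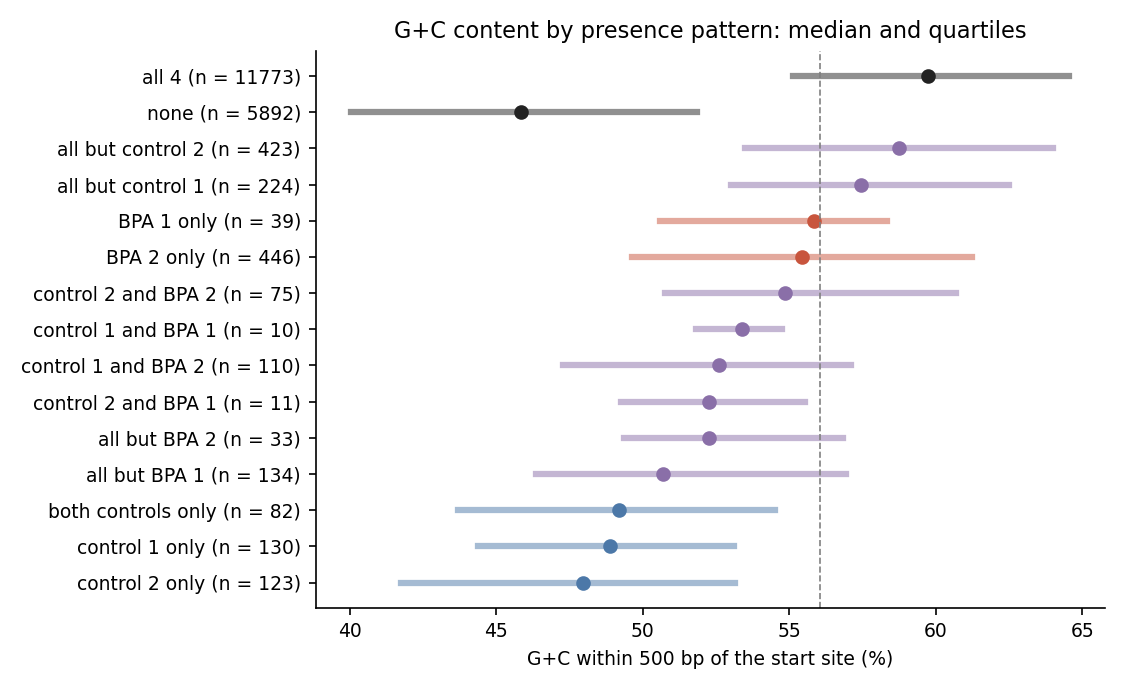
G+C content of the 1001 bp around the main start site (x axis, %), with a point for the median and a bar for the quartiles over genes, by presence pattern. Blue marks patterns of control libraries only, red those of a single BPA library, purple mixed patterns and black genes open in all 4 libraries or in none, and the dashed line is the median of 56% over all coding genes. The 3 blue patterns have the lowest medians of all patterns of members.

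A split was also seen library by library, and it was smallest in control 1. Members open in BPA 1 had a median G+C of 57.5% and those without a peak in BPA 1 52.4%, and in BPA 2 the medians were 56% and 50.5%. In control 1 they were 54.3% with a peak and 54.9% without, and in control 2 53.1% and 55.4%. The members that a BPA library lacked thus had a lower median G+C than those it held, and for the controls the order was reversed. The median with a peak minus that without was 5.0 in BPA 1 and 5.5 in BPA 2, against −0.65 in control 1 and −2.3 in control 2. The 516 genes left out by the rule, which would add to the first group of each BPA library and the second of each control, had a median of 57.8%. In the stricter subset the medians were 56.8% and 52.1% for BPA 1, 56.1% and 49.5% for BPA 2, 53.6% and 54.9% for control 1 and 52.9% and 55.3% for control 2. Library preparation or sequencing batch was not labelled, and whether base content of the reads took part in these differences was not tested.

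Across 5 bins of all coding genes by G+C, each with 3967 to 4059 genes, the share of members was 8.7%, 12.1%, 9.9%, 7.98% and 7.23% from the lowest bin to the highest. Genes open in both controls only numbered 34, 24, 17, 6 and 1 in these bins. Genes open in all but control 2 numbered 36, 71, 89, 112 and 115, so that these 2 patterns ran in opposite directions while the total was highest in the second bin.

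Promoter motifs were counted as matches of letters. GGGCGG, the core of the Sp1 site, lay in 41.1% of member windows from 250 bases before to 50 after the start, on either strand, against 67.4% of genes open in all 4, 13.1% of genes open in none and 48.5% of all coding genes. CCGGAAG, an ETS site, lay in 4.24% of members, 18.7% of genes open in all 4, 2.44% of genes open in none and 12.2% of all. TATAAA lay in 13.4% of members, against 6.54% of genes open in all 4 and 26.3% of genes open in none. By pattern, GGGCGG ran from 22% in both controls only to 56.5% in all but control 2, among patterns of at least 75 genes. The NRF1 core GCGCATGC lay in 1.58% of members and 3.63% of all coding genes. The AP-1 site TGACTCA lay in 4.89% and 4.44%, and the E-box CACGTG in 7.28% and 8.09%. The full cAMP response element TGACGTCA lay in 1.74% of members and 2.52% of all. GGGCGG and CCGGAAG each hold a CG dinucleotide. These counts do not show that a factor was bound.

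Members seldom had a neighbouring start site. Another coding gene began within 1000 bp at 56 of them (3.04%), against 10.4% of all coding genes and 16.6% of genes open in all 4 libraries. These formed 37 pairs, in 19 of which both genes were members and in 16 both had the same pattern, while in 14 the partner was open in all 4 libraries. Members sharing 1 peak, as in the histone pairs, are not independent. By chromosome the share of members ran from 6.71% on chromosome 2 to 11.6% on chromosome 13.

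Gene families were counted by symbol, in 52 families of at least 20 coding genes, and 33 of them had a share of members above the 9.19% over all coding genes. Potassium channels and neurotransmitter receptors had the highest shares over all genes of a family. Families with many genes open in none rank higher when only genes open in at least 1 library are counted. Members were then 71.4% of keratins, 55.2% of C-type lectins, 53.7% of neurotransmitter receptors and 42.9% of potassium channels, against 13% overall among such genes. The shares below are over all genes of a family. Potassium channels counted 30 members of 92 genes (32.6%) and receptors for GABA, glutamate, acetylcholine and glycine 22 of 68 (32.4%), while sodium and calcium channels counted 8 of 39 (20.5%). Potassium channel members were open in 14, 12, 12 and 22 genes in control 1, control 2, BPA 1 and BPA 2. Collagens counted 12 of 42 (28.6%), Hox genes 11 of 39 (28.2%), forkhead genes 11 of 43 (25.6%), fibroblast growth factors and receptors 7 of 28 (25%) and Wnt ligands and Frizzled receptors 7 of 29 (24.1%). All 11 forkhead members and all 7 Wnt and Frizzled members had a peak in BPA 2, the deepest library. That library held a peak at 76.7% of all members. Forkhead members of BPA 2 only were 7, among them Foxa2, a pioneer regulator of endoderm.

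Histone genes were members at 21 of 75 (28%), with 39 open in all 4 libraries, 15 in none and 0 in both BPA libraries only. Of the 21, 15 had a peak in control 1 and 13 in control 2, against 14 in BPA 2 and 3 in BPA 1. BPA 1 lacked 18 of them, against 1100 of 1840 members in all. H4c6, H3c2 and H2bu2 were open in all but BPA 1, with pile-ups in control 1, control 2 and BPA 2 of 43, 40 and 78, of 36, 33 and 63, and of 21, 20 and 38. H2ac7 and H2bc7 were open in BPA 1 with a shared pile-up of 30, and in control 2 with 43, while control 1 had a peak 915 bp from H2ac7. Histone genes within a cluster are near-identical copies, so that values from uniquely mapped reads are uncertain there, and single peaks were assigned to several genes.

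Some immune families were also above the share over all coding genes. C-type lectins and killer lectin receptors counted 16 members of 60 genes (26.7%), chemokines and their receptors 13 of 56 (23.2%) and CD antigens 17 of 86 (19.8%). Of all 1840 members, control 1 held peaks at 50.1%, control 2 at 37.1%, BPA 1 at 40.2% and BPA 2 at 76.7%. Of the chemokine members, control 1 held peaks at 6, control 2 at 1, BPA 1 at 5 and BPA 2 at 10. Of the CD antigen members they held peaks at 12, 2, 7 and 15 in that order. Control 2 had the fewest of these, whereas of the C-type lectin members BPA 1 had the fewest, with 7, 5, 3 and 11 in that order, and likewise of the members among interleukins and their receptors, with 6, 6, 2 and 8. Integrins counted 7 members of 30 genes (23.3%), with peaks at 6, 1, 6 and 7 of them. Olfactory receptors counted 23 members of 1101 genes (2.09%), open in 9, 13, 1 and 7 genes. Only 25 of the 1101 were open in any library, and members made up 92% of those. Over all coding genes open in at least 1 library that share was 13%.

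The lowest shares belonged to 2 opposite kinds of family. Mitochondrial ribosomal proteins had 0 members of 78, all open in the 4 libraries, and proteasome subunits had 1 of 50, with 47 open in all 4. NADH dehydrogenase subunits had 1 of 46 and cytosolic ribosomal proteins 3 of 91. Kinesins had 0 of 37. Vomeronasal receptors had 2 of 351, with 349 open in none, and 1076 of the 1101 olfactory receptors were open in none.

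**Figure D4:**
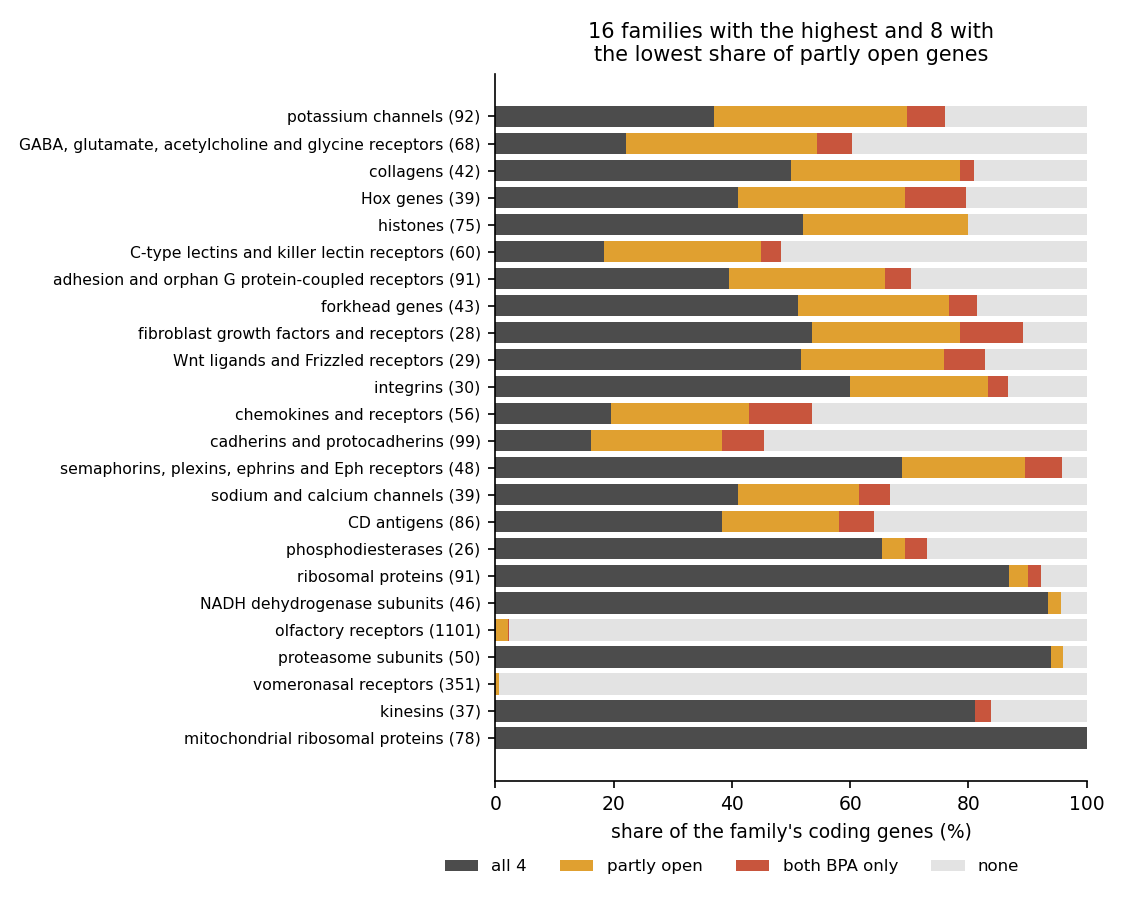
Share of each family's coding genes (x axis, %) open in all 4 libraries, partly open, open in both BPA libraries only and open in none, for the 16 families with the highest and the 8 with the lowest share of partly open genes, with the number of genes in brackets. Potassium channels had the highest share at 32.6%, and mitochondrial ribosomal proteins none.

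Cell type marker lists were described in the same way, and 45 of 188 listed genes (23.9%) were members, 58 (30.9%) were open in all 4 libraries, 58 in none and 27 (14.4%) in both BPA libraries only, against 9.19%, 58.8%, 29.4% and 2.58% of all coding genes. Of the 45, 12 belonged to the stricter subset. Adipocyte and proliferation genes held 0 members, since 14 of 15 and 8 of 8 were open in all 4. Mast cell and granulocyte genes held 0 of 8 and erythroid genes 0 of 5. Lists of 5 to 15 genes are short, and 1 member of 8 is a share of 12.5%, near the 9.19% over all coding genes.

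Mesothelial genes had the largest share beside brown adipocyte genes, with 6 members of 9. Control 1 had promoter peaks at 7 of 9 of these genes, control 2 at 3, BPA 1 at 3 and BPA 2 at 1, so that the deepest library had the fewest. Wt1, a transcription factor of mesothelium, was open in all 4 libraries, and Msln and Krt18 in none. Upk3b had pile-ups of 36 in control 1, 36 in control 2 and 24 in BPA 1, and the nearest peak of BPA 2 lay 2997 bp away. Muc16 had 43, 27 and 15 in the same order, with the nearest peak of BPA 2 at 200307 bp. Both genes thus lacked a peak in the library with the highest pile-ups alone.

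Another 4 genes of that list were open in control 1 only. Krt8, an epithelial keratin, had a pile-up of 21, Krt19, another keratin, 24, Lrrn4, a leucine-rich repeat gene, 41 and Upk1b, a uroplakin, 21. Nearer peaks existed elsewhere, since those of the other libraries lay 693 to 916 bp from Krt8 and 860 to 1058 bp from Lrrn4. Among epithelial genes, 5 of 10 were members, and Krt7, a keratin that mesothelium also expresses, followed Upk3b, with pile-ups of 27, 22 and 13 in control 1, control 2 and BPA 1 and the nearest peak of BPA 2 at 1685 bp. Epcam, an adhesion molecule, and Elf3, an epithelial ETS factor, were open in all but control 2, which had a peak 522 bp from Epcam.

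Lymphocyte genes had the most promoter peaks in control 1 and BPA 2, which also held the most members of any kind. Those 2 libraries held 50.1% and 76.7% of all members, against 37.1% in control 2 and 40.2% in BPA 1. Open in none were 4 of 8 B cell genes and 8 of 15 T and NK cell genes. Of 8 B cell genes, control 1 had promoter peaks at 3, control 2 at 0, BPA 1 at 1 and BPA 2 at 2, and 3 of them were members. Ms4a1, which encodes CD20, had a pile-up of 30 and a rank of 25.1% in control 1 only, and Cd79a, a part of the B cell receptor, one of 15. Cd22, a B cell lectin, had 16 in control 1 and 24 in BPA 2, where its peak lay at the 500 bp limit. T and NK cell genes were open at 4, 1, 3 and 6 of 15 genes in control 1, control 2, BPA 1 and BPA 2. Cd5 and Cd2, surface proteins of T cells, had pile-ups of 15 and 24 in control 1 and 24 and 20 in BPA 2. Lck, the T cell kinase, was open in control 1 only with 19, although BPA 2 had a peak 717 bp away. Ccr7, a chemokine receptor of lymphocytes and dendritic cells, was open in control 1 only with 13. Several of these pile-ups were near the lowest listed values of 9 in the controls and 11 in BPA 2.

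Several myeloid and vascular members lacked a peak in 1 control. Itgam, an integrin of macrophages, had pile-ups of 13 in control 2, 11 in BPA 1 and 70 in BPA 2, and no peak within 13507 bp in control 1. Cd74, the MHC class II invariant chain, had a pile-up of 44 in control 1 and of 18 and 118 in the BPA libraries, and the nearest peak of control 2 lay 2675 bp away. Vascular endothelial genes had promoter peaks at 5, 4, 15 and 15 of 15 genes in control 1, control 2, BPA 1 and BPA 2, with 9 of them left out as open in both BPA libraries only, so that 3 were members. Flt1, a VEGF receptor, and Sox17, an endothelial transcription factor, were open in all but control 2, with pile-ups of 20, 57 and 197 and of 13, 30 and 89 in control 1, BPA 1 and BPA 2. Control 2 had a peak 944 bp from Flt1. Cldn5, an endothelial tight junction gene, was open in all but control 1 with 32, 51 and 155 in control 2, BPA 1 and BPA 2, and control 1 had a peak 543 bp away. At these 3 vascular genes the pile-ups were higher in both BPA libraries than in the control with a peak, whereas Cd74 and Itgam had a lower pile-up in BPA 1 than in the control. The median pile-ups at genes open in all 4 libraries were also higher in the BPA libraries, with 84 and 284 against 58 and 57 in the controls. The patterns missing 1 control also require a peak in both BPA libraries.

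Brown adipocyte genes were members at 4 of 6, with Cidea and Dio2 open in all 4 libraries. Ucp1, the uncoupling protein of brown fat, had a pile-up of 14 in control 2 and 25 in BPA 2, with the nearest peaks of control 1 and BPA 1 at 11554 and 11533 bp. Ppargc1a, a coactivator of mitochondrial genes, had 64, 87 and 148 in control 1, control 2 and BPA 2, and BPA 1 had a peak 668 bp away. Elovl3, a fatty acid elongase, had 20 in control 1 and 39 in BPA 2, and Zic1, a transcription factor, 22 in BPA 2 only. All 4 were open in BPA 2 and none in BPA 1, against 76.7% and 40.2% of all members. BPA 1 had a peak 903 bp from Zic1.

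Of the other lists, progenitor and fibroblast genes had 2 members of 12, Fbln1 and Thy1, both open in all but control 2 with pile-ups of 22, 30 and 64 and of 21, 22 and 74 in control 1, BPA 1 and BPA 2. Control 2 had a peak 940 bp from Fbln1. Pericyte and smooth muscle genes had 3 of 11, and Tagln, a smooth muscle actin-binding protein, had 32 in control 1 and 91 in BPA 2, with BPA 1 527 bp away. Lymphatic endothelial genes had 2 of 6, macrophage genes 2 of 13, dendritic cell and antigen presentation genes 3 of 8, Schwann cell and nerve genes 2 of 7 and neuron genes 2 of 8. S100b, a glial calcium-binding protein, had 20, 28 and 56 in control 1, control 2 and BPA 2 and no peak within 4001 bp in BPA 1. Germ cell genes had 2 of 8, skeletal muscle genes 1 of 8 and hepatocyte genes 1 of 8. Dazl, a germ cell RNA-binding protein, was open in BPA 2 only with a pile-up of 187, and the other libraries had peaks 514 to 578 bp away.

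The remaining listed members were open in few libraries or had low pile-ups. Of the lymphatic genes, Pdpn, podoplanin, had 23, 22 and 34 in all but BPA 1, and Reln, a secreted matrix protein, 17 in control 1 and 40 in BPA 2. Notch3 and Abcc9, a receptor and a potassium channel subunit of mural cells, were open in BPA 2 only with 52 and 47, and so was Lyz2, lysozyme of macrophages, with 36. BPA 1 had a peak 892 bp from Notch3, and control 2 had one 948 bp from Abcc9. Itgax, the integrin CD11c, had 13, 13 and 50 in all but control 2. In the nerve and neuron lists, Ngfr, a neurotrophin receptor, was open in all but control 2 with 14, 15 and 63, Nefl, a neurofilament, in all but control 1 with 12, 13 and 27, and Stmn2, a growth cone protein, in BPA 2 only with 40. BPA 1 had a peak 662 bp from Stmn2. Esrp1, an epithelial splicing factor, and Tnnt3, a troponin of fast muscle, were open in BPA 2 only with 47 and 55, and Grhl2, an epithelial transcription factor, in control 2 only with 14. The BPA 2 peaks lay 449 and 409 bp from Esrp1 and Tnnt3, and BPA 1 had peaks 608 and 796 bp away. Control 2 also had a peak 744 bp from Esrp1, and BPA 2 had one 779 bp from Grhl2. Sycp3, a meiotic chromosome protein, had 24, 12 and 42 in all but control 1, and Cyp2e1, a liver cytochrome P450, 23, 26 and 20 in all but BPA 1. BPA 2 held a promoter peak at 13 of these 14 genes, and at 76.7% of all members.

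**Figure D5:**
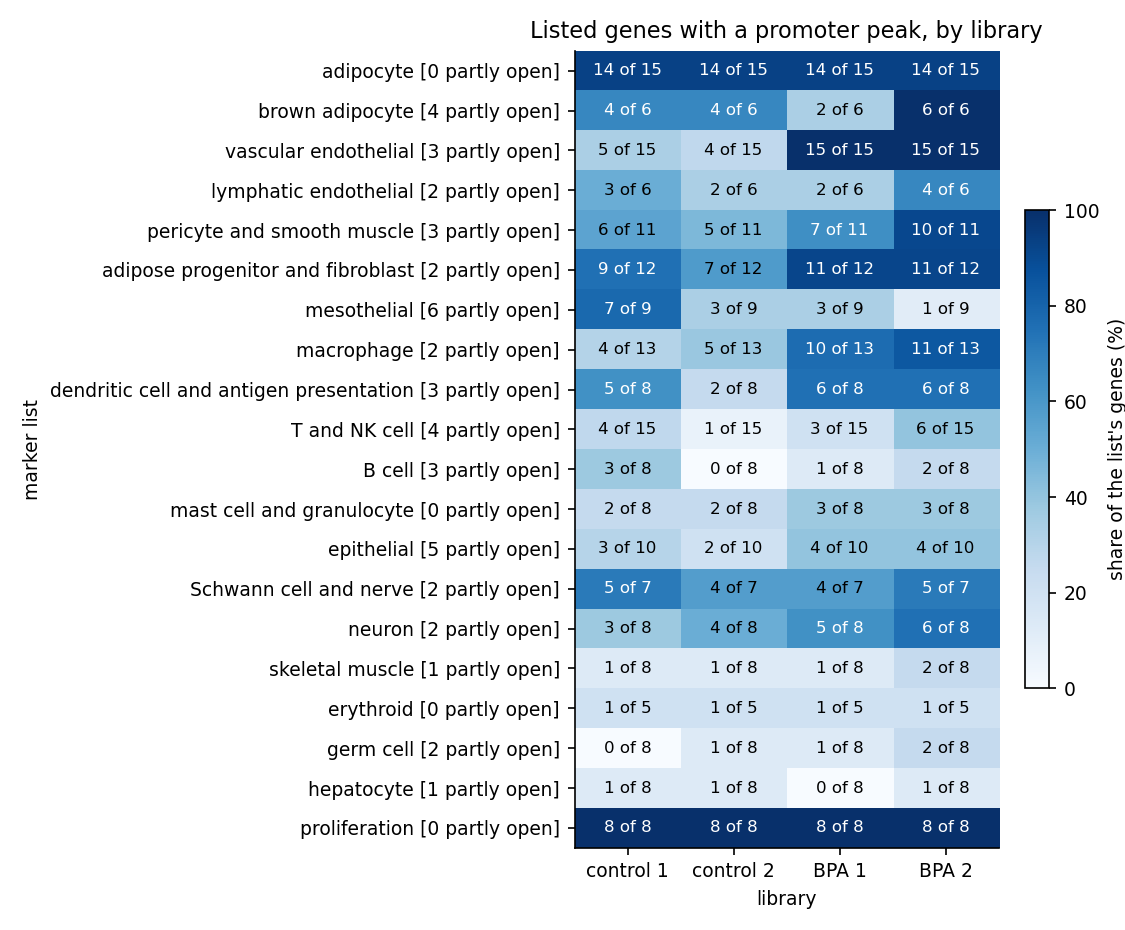
Number of listed marker genes with a promoter peak in each library (columns) for 20 cell type lists (rows), with shading for the share of the list (%) and the number of partly open genes in brackets. Adipocyte and proliferation genes were open alike in the 4 libraries, and mesothelial genes ran from 7 of 9 in control 1 to 1 of 9 in BPA 2.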

How the data were processed

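Open chromatin was measured by ATAC-seq in 4 libraries. Per the study's methods the authors trimmed reads with Trim Galore, mapped them to mm10 with Bowtie2 2.3.5.1, kept unique reads, removed duplicates with SAMtools and called peaks on each library with MACS2 2.2.7.1, without pooling. The deposited peak lists give a score, a fold enrichment over local background, and −log10 p-values and q-values. All listed q-values were below 0.05. No read totals are listed, so read depth is known only through the pile-ups. One BPA library's file carries another replicate number than its label, and the label was used.

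Start sites of 36208 curated coding transcripts were read from RefSeq GRCm38.p6, the assembly of mm10. A promoter peak overlapped 500 bp either side of any start, and the best by −log10 q-value was kept. Pile-ups were solved from the deposited fold and p-value, matching 100% of peaks within a relative error of 0.0001. G+C and the CpG observed over expected ratio were taken from 1001 bp around the start of the longest transcript. Pile-up solving and promoter calls were tested on simulated data. Python 3.11.15, numpy 2.4.6, pandas 2.3.3, scipy 1.17.1 and matplotlib 3.10.9 were used. The members, families and marker lists were chosen with earlier results of these data known. Named genes were the 10 best-ranked genes open in both controls only and 2 of each other pattern by their worst rank, the partly open marker genes, the genes at the limit and those whose sequence is shown, beside genes of the stricter subset, which was added later. Marker genes Foxp3, Gata1 and Alas2 lie outside these chromosomes. Some items are not reported here. No test between groups was run.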

Additional observations from a re-analysis of the deposited data

How the results depend on the processing

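Of 78 values recomputed for 6 results under 13 alternatives, 52 stayed within the spread or within 1.5 times, and 26 moved. A summit within 500 bp gave 150 genes open in both controls only and 1258 in 3 libraries, a median G+C of 57.1% and a median rank of 40.8%. A −log10 q-value of at least 5 gave 38 genes open in both controls only and a rank of 39.8%. Lists of equal length gave a rank of 50.8%, and the best 20000 peaks gave 1339 genes in 3 libraries, 58.9% G+C and a rank of 14.2%, as lower ranks are then left out. In that last setting 222 of 1840 members remained. The stricter subset, added after the data were seen, gave 1000 partly open genes, with 51 in both controls only, 388 in 1 library and 452 in 3. Leaving out each library in turn gave 1063 to 1322 partly open genes, 115 to 216 open in every remaining control only, 274 to 810 in 1 library, 253 to 947 in all but 1, a G+C of 53.05% to 54.65% and a rank of 56.7% to 72.1%. Without control 1 the partly open genes numbered 1063 and without control 2 1070, since genes open in both BPA libraries and no remaining control are left out. No paired analysis was possible because the results come from no test and the library numbers pair no animals. A missing peak does not show closed chromatin, and the part of depth in the patterns was not tested.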
